A study of Mus musculus with 2 samples.

Results

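The 8 genes described here are the fibroblast growth factor (FGF) ligands Fgf1, Fgf2, Fgf7 and Fgf10, the receptors Fgfr1, Fgfr2 and Fgfr3, and Klb, the gene of the co-receptor beta-Klotho. They were chosen by symbol, each matched exactly 1 entry of the deposited list of 33943 genes, and all 8 were detected. Their counts were followed across the cell types of the lactating mammary fat pad and between 2 genotypes. The tissue was the inguinal fat pad, which holds the mammary gland, of lactating dams on day 11 after birth, with lymph nodes removed. Breeding pairs were 8 weeks old. Of the litters, 7 had 5 pups and 1 had 3, and no litter is tied to a dam by its label. The tested group was 4 dams in which Oxtr, the oxytocin receptor gene, was deleted in adipocytes (hashtags named Oxtr-KO, here KO1 to KO4). Its control was 4 dams with the floxed Oxtr allele (hashtags named WT, here WT1 to WT4), and taking the WT hashtags as the floxed dams is a reading of the labels. The labels do not name the promoter that drove the recombinase. Nuclei of all 8 dams were pooled into 1 droplet library (10x Genomics), and DNA-barcoded hashtags in a second library marked the dam of each nucleus.

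Secreted FGFs bind receptor tyrosine kinases on the cell surface together with heparan sulphate, and the bound receptor signals through the adaptor FRS2 and a kinase relay that ends in ERK. Fgf7 and Fgf10 belong to a family made mainly by mesenchymal cells that acts on the epithelial splice form of Fgfr2, and Fgf10 and this receptor form are needed for the mammary buds of the mouse embryo. Fgf1 and Fgf2 lack a classical signal peptide, and Fgf1 can activate every FGF receptor. Beta-Klotho lets Fgfr1 respond to the hormone FGF21 in adipocytes. The counts here are sums per gene from nuclear RNA and do not tell the splice forms of a receptor apart.

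The matrix held 21805 barcodes, of which 20854 passed the filters, and 12998 nuclei were given to 1 dam each, 1246 to 2013 per dam. The median depth of a dam's nuclei was 4297 to 5184 unique molecular identifiers (UMIs, counts of single captured RNA molecules) in the animals labelled knockout and 4713 to 5657 in WT animals. Clusters were named only by marker genes, 4 to 10 of a type's list, so each name stands for nuclei like that type: 12345 secretory luminal nuclei (milk-making cells), 1943 myoepithelial (contractile cells around the alveoli), 1720 fibroblast, 752 macrophage, 551 vascular endothelial, 462 adipocyte, 273 luminal progenitor, 141 pericyte and 47 hormone-sensing luminal nuclei. Of these, 10091 secretory luminal, 951 myoepithelial, 662 fibroblast, 373 macrophage and 146 vascular endothelial nuclei were given to a dam. So were 374 adipocyte, 193 luminal progenitor, 38 pericyte and 27 hormone-sensing luminal nuclei. Values per dam and all tests use only these. Shares of nuclei with their median depths, pooled levels and bounds where no UMI was counted use all nuclei of a type. Levels are CPM, a gene's UMIs per 1000000 UMIs of the sum over a dam's nuclei of 1 type, and 7 types had enough nuclei in every dam. These are counts of 3′ tags, so levels are set side by side for 1 gene across types and not between genes. Milk protein transcripts took 11.5 to 17.0% of the UMIs of secretory luminal nuclei in the animals labelled knockout and 14.6 to 16.5% in WT animals. They also took 7.38 to 8.66% and 7.10 to 8.22% of those of adipocyte nuclei, so transcripts of milk-making cells were counted in every type. The targeted gene itself went against its label: Oxtr had 4 to 6 UMIs per animal in adipocytes of the animals labelled knockout, 14.3 to 21.6 CPM, against 1 UMI in each WT animal, 4.25 to 5.81 CPM. Myoepithelial nuclei held far more Oxtr, 150 to 199 CPM in the animals labelled knockout and 178 to 236 CPM in WT animals. From which cells the few UMIs in adipocyte nuclei came was not tested. Which part of the gene was deleted is not given, so a 3′ count may lie outside it and check nothing. For this reason the dams are called animals labelled knockout throughout, and every direction between genotypes below rests on that label.

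Adipocytes and fibroblasts held nearly all Fgf10, the ligand whose receptor is the epithelial form of Fgfr2. In adipocytes Fgf10 stood at 154, 389, 134 and 157 CPM in KO1 to KO4, and at 378, 401, 357 and 186 CPM in WT1 to WT4. In fibroblasts it stood at 81.8, 130, 88.0 and 114 CPM in KO1 to KO4, and at 111, 103, 95.4 and 95.6 CPM in WT1 to WT4. The lowest adipocyte value lay just above the highest fibroblast value, and adipocytes were higher in 8 of 8 animals. Across all 8 animals the mean was 269 ± 121 CPM in adipocytes (SD, n = 8) and 102 ± 15.5 CPM in fibroblasts, against 0.688 ± 0.185 CPM in secretory luminal nuclei. Over all nuclei, those given to no dam included, Fgf10 was at 277 CPM in adipocytes and 144 CPM in fibroblasts. Both stromal types exceeded secretory luminal nuclei in 8 of 8 animals, by 269 and 102 CPM (exact two-sided sign-flip permutation tests, p = 0.00781 each, the smallest that 8 animals can give, adjusted p = 0.0139 over 16 fixed pairs). No Fgf10 UMI was counted in 273 luminal progenitor nuclei, which allows up to 2.76 CPM. Myoepithelial nuclei averaged 6.91 ± 7.32 CPM of Fgf10.

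As a share of nuclei, a Fgf10 UMI was found in 46.8% of adipocyte nuclei and 21.1% of fibroblast nuclei, at median depths of 4109.5 and 2728 UMIs. In macrophages, which are not known as a source of Fgf10, the share was 0.532% at a median depth of 2587.5 UMIs. Nuclei were then thinned to 1000 UMIs, which left out 10 adipocyte, 86 fibroblast and 80 macrophage nuclei that were shallower. After thinning, the shares were 18.8% in adipocytes (95% exact binomial interval 15.3 to 22.7%), 11.5% in fibroblasts (10.0 to 13.2%) and 0 of 672 nuclei in macrophages (upper bound 0.547%). These intervals cover counting error only.

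Fgf7, which binds the same receptor form as Fgf10, was instead a fibroblast gene. Its fibroblast level was 11.9, 20.6, 32.4 and 44.1 CPM in KO1 to KO4, and 38.1, 15.3, 23.8 and 15.9 CPM in WT1 to WT4. The 2 genotypes overlapped over almost their whole range. Fibroblasts averaged 25.3 ± 11.7 CPM (SD, n = 8) against 2.05 ± 0.994 CPM in secretory luminal nuclei, a difference of 23.2 CPM that was positive in 8 of 8 animals (exact sign-flip permutation test, adjusted p = 0.0139). Over all fibroblast nuclei, those given to no dam included, Fgf7 was at 34.3 CPM. Adipocytes, the type richest in Fgf10, held 1 Fgf7 UMI in all, 0.322 ± 0.910 CPM. The difference from secretory luminal nuclei was -1.72 CPM, lower in 7 of 8 animals (exact sign-flip permutation test, adjusted p = 0.0313). That call was lost under both other ways of assigning hashtags, and without any of KO1, KO3, KO4, WT1, WT2 or WT3. Leaving out a dam also raises the smallest p that this test can give, and the difference stayed between -2.09 and -1.42 CPM.

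Fgf2 was scarce. Adipocytes averaged 12.01 ± 8.22 CPM (SD, n = 8) from 24 UMIs and fibroblasts 5.61 ± 4.85 CPM from 20 UMIs, against 0.323 ± 0.215 CPM in secretory luminal nuclei. Adipocytes were above secretory luminal nuclei in 7 of 8 animals (exact sign-flip permutation test, adjusted p = 0.0227) and fibroblasts in 6 of 8 (adjusted p = 0.0385, exact). The fibroblast call was lost when hashtags were assigned within barcodes, at 4.85 CPM, and without any of KO1, KO2, KO3, KO4, WT3 or WT4. With a dam left out, where the smallest possible p is also larger, the difference stayed between 4.14 and 6.08 CPM. The adipocyte and fibroblast ranges overlapped from 0 CPM upwards, so their order is not settled by these counts.

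Fgf1 went the other way from the stromal ligands and was highest in the myoepithelium. Myoepithelial nuclei held 145, 155, 173 and 190 CPM in KO1 to KO4, and 205, 182, 201 and 226 CPM in WT1 to WT4. Luminal progenitors came next at 86.6 ± 47.1 CPM (SD, n = 8), and secretory luminal nuclei followed at 49.2 ± 20.6 CPM. Neighbours in this order overlapped, with 1 luminal progenitor value, 192 CPM in WT2, inside the myoepithelial range. The remaining types lay between 20.0 CPM in adipocytes and 38.8 CPM in vascular endothelium. Adipocytes differed from secretory luminal nuclei by -29.2 CPM and were lower in 8 of 8 animals (exact sign-flip permutation test, adjusted p = 0.0139). For fibroblasts the difference of -13.0 CPM did not pass (adjusted p = 0.143, exact), although it did when barcodes with high doublet scores were removed (-18.2 CPM), when milk protein genes were left out of the totals (-17.4 CPM) and without WT4 (-16.5 CPM). After thinning, 20.8% of myoepithelial nuclei had a Fgf1 UMI (19.0 to 22.7%), against 4.83% of secretory luminal and 1.49% of macrophage nuclei. Unthinned, these shares were 45.1%, 19.1% and 7.18%, at median depths of 2560, 4828 and 2587.5 UMIs. The adipocyte and fibroblast shares, 0.664% and 2.82% after thinning and 7.36% and 9.07% before it, were also below the secretory luminal share. Whether the adipocyte, fibroblast and macrophage shares are background or expression was not tested.

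**Figure D1:**
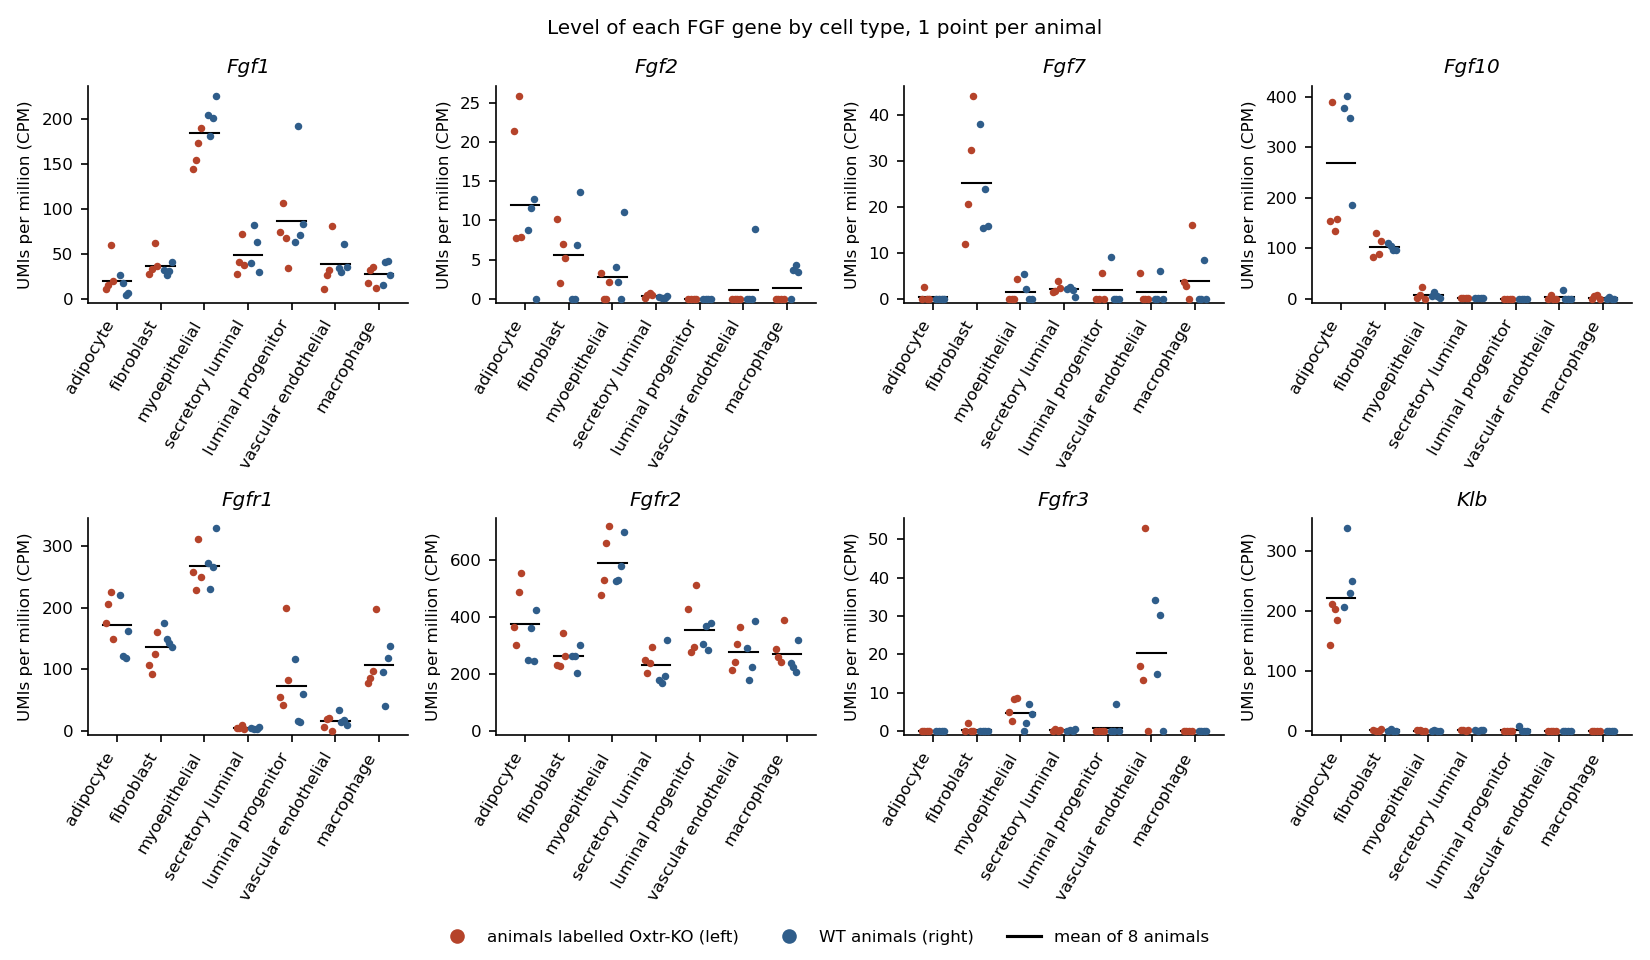
Level of each of the 8 genes (CPM of the UMIs summed over a dam's nuclei of 1 type, linear axis from 0) in 7 cell types, with 1 point per animal, animals labelled knockout left of WT animals, and a line at the mean of the 8 animals. Fgf10 and Klb stand out in adipocytes at means of 269 and 220 CPM, Fgf7 in fibroblasts at 25.3 CPM, Fgf1 and Fgfr1 in myoepithelial nuclei at 185 and 268 CPM, and Fgfr2 is at 168 CPM or more in every animal and type.

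Among the receptors, Fgfr1, the main partner of beta-Klotho in fat, was strong in the myoepithelium and the stroma and nearly missing from milk-making cells. Myoepithelial nuclei held 258, 229, 310 and 250 CPM in KO1 to KO4, and 272, 230, 266 and 328 CPM in WT1 to WT4. Every one of these values lay above the highest value of adipocytes, which averaged 172 ± 41.7 CPM (SD, n = 8). Fibroblasts followed at 136 ± 27.3 CPM and macrophages at 106 ± 46.4 CPM, and these 3 types overlapped. Over all nuclei, those given to no dam included, fibroblasts were at 184 CPM and adipocytes at 176 CPM, so their order is not settled. Secretory luminal nuclei held 4.23, 4.86, 8.88 and 2.65 CPM in KO1 to KO4, and 4.03, 3.21, 3.35 and 5.70 CPM in WT1 to WT4. They differed from fibroblasts by -132 CPM, lower in 8 of 8 animals, and myoepithelial nuclei lay 132 CPM above fibroblasts, higher in 8 of 8 (exact sign-flip permutation tests, adjusted p = 0.0139 each). Epithelial types thus bracketed the stroma. Luminal progenitors varied widely between animals, at 14.3 to 199 CPM from 75 UMIs. Thinned to 1000 UMIs, 32.5% of myoepithelial, 19.0% of adipocyte, 17.7% of fibroblast and 13.2% of macrophage nuclei had a Fgfr1 UMI, against 0.377% of secretory luminal nuclei. The unthinned shares were 62.2%, 45.0%, 41.1%, 25.3% and 2.11%.

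Fgfr2, the receptor gene whose epithelial form binds Fgf7 and Fgf10, was also highest in the myoepithelium but far from absent anywhere. Myoepithelial nuclei held 480, 530, 660 and 720 CPM in KO1 to KO4, and 528, 530, 581 and 701 CPM in WT1 to WT4. This was 328 CPM above fibroblasts and higher in 8 of 8 animals (exact sign-flip permutation test, adjusted p = 0.0139). Adipocytes averaged 374 ± 111 CPM (SD, n = 8) and luminal progenitors 356 ± 83.1 CPM. Vascular endothelium, macrophages, fibroblasts and secretory luminal nuclei formed a plateau at 276, 272, 263 and 231 CPM. Secretory luminal nuclei differed from fibroblasts by -31.9 CPM, lower in 5 of 8 animals, which did not pass (adjusted p = 0.192, exact). The differences in single animals ran from -106 to 34.2 CPM.

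The plateau matters for how Fgfr2 counts are read. After thinning, a Fgfr2 UMI was found in 19.0% of secretory luminal nuclei (18.3 to 19.7%), beside 20.1% in macrophages (17.1 to 23.3%), 20.0% in vascular endothelium and 21.4% in fibroblasts. Blood-derived and vascular cells are not where the epithelial form is known to work, but these counts do not tell the splice forms apart. The secretory luminal share did not stand above the shares of those cells. Whether it is background or expression was not tested, and it is read as neither. Myoepithelial nuclei, at 51.9%, and hormone-sensing luminal nuclei, at 68.1% of 47 (52.9 to 80.9%), lay above the secretory luminal share, as did luminal progenitors at 30.2% (24.8 to 36.1%). Adipocytes, at 27.0% (22.95 to 31.3%), lay above secretory luminal nuclei, but their interval overlapped those of macrophages and vascular endothelium. These intervals pool nuclei and do not hold the spread between dams. Per dam, Fgfr2 levels of adipocytes, 246 to 556 CPM, overlapped those of secretory luminal nuclei, 168 to 320 CPM. Unthinned, the shares were 58.3% in secretory luminal, 44.7% in macrophage, 37.6% in vascular endothelial, 46.4% in fibroblast, 82.1% in myoepithelial, 66.3% in luminal progenitor, 65.8% in adipocyte and 87.2% in hormone-sensing luminal nuclei, and the median depth of the last was 3018 UMIs. In 1 annotation of the older build GRCm38 (GENCODE M21), the Fgfr2 gene model on chromosome 7 spans 2961 kb and covers 69 other genes, whereas RefSeq gives 104 kb on the same build. No source used here says whether the authors' annotation on GRCm39 has the long model, so reads of neighbouring genes may have been counted as Fgfr2 in all types, which was not tested.

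Fgfr2 also moved between dams. In secretory luminal nuclei it stood at 249, 204, 239 and 296 CPM in KO1 to KO4, and at 179, 168, 193 and 320 CPM in WT1 to WT4. WT4 held the highest WT value in 7 of 7 types, and KO4 the highest value of the animals labelled knockout in 6 of 7. The labels give no batch for these dams.

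Fgfr3 was scarce, with 49 UMIs over all animals in the 7 types. Vascular endothelium had 20.3 ± 17.99 CPM (SD, n = 8) from 18 UMIs, with 2 of 8 animals at 0, and myoepithelial nuclei 4.73 ± 3.09 CPM from 18 UMIs. Myoepithelial nuclei exceeded fibroblasts by 4.48 CPM, higher in 7 of 8 animals (exact sign-flip permutation test, adjusted p = 0.0227). No Fgfr3 UMI was counted in 462 adipocyte nuclei, which allows up to 1.38 CPM, nor in 752 macrophage nuclei, which allows up to 1.06 CPM. Secretory luminal nuclei and fibroblasts were not told apart at these counts (difference -0.05 CPM, exact p = 1).

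Klb counts lay almost wholly in adipocytes. Adipocytes held 143, 211, 203 and 184 CPM in KO1 to KO4, and 207, 337, 229 and 250 CPM in WT1 to WT4. No other type with enough nuclei averaged above 1.12 CPM, and no UMI was counted in macrophages, which allows up to 1.06 CPM. The adipocyte mean of 220 ± 56.6 CPM (SD, n = 8) exceeded both secretory luminal nuclei and fibroblasts by 219 CPM in 8 of 8 animals (exact sign-flip permutation tests, adjusted p = 0.0139 each). Its usual partner Fgfr1 was detected in 44.7% of adipocyte nuclei with a Klb UMI and in 45.3% of those without one, at median depths of 4267 and 3716 UMIs. Fgf21, the hormone that signals through this pair, had no UMI in the 7 types. After thinning, 16.8% of adipocyte nuclei had a Klb UMI (13.5 to 20.6%), against 0.167% of secretory luminal nuclei and 0 of 672 macrophage nuclei. Unthinned, the shares were 46.5%, 0.583% and 0%.

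**Figure D2:**
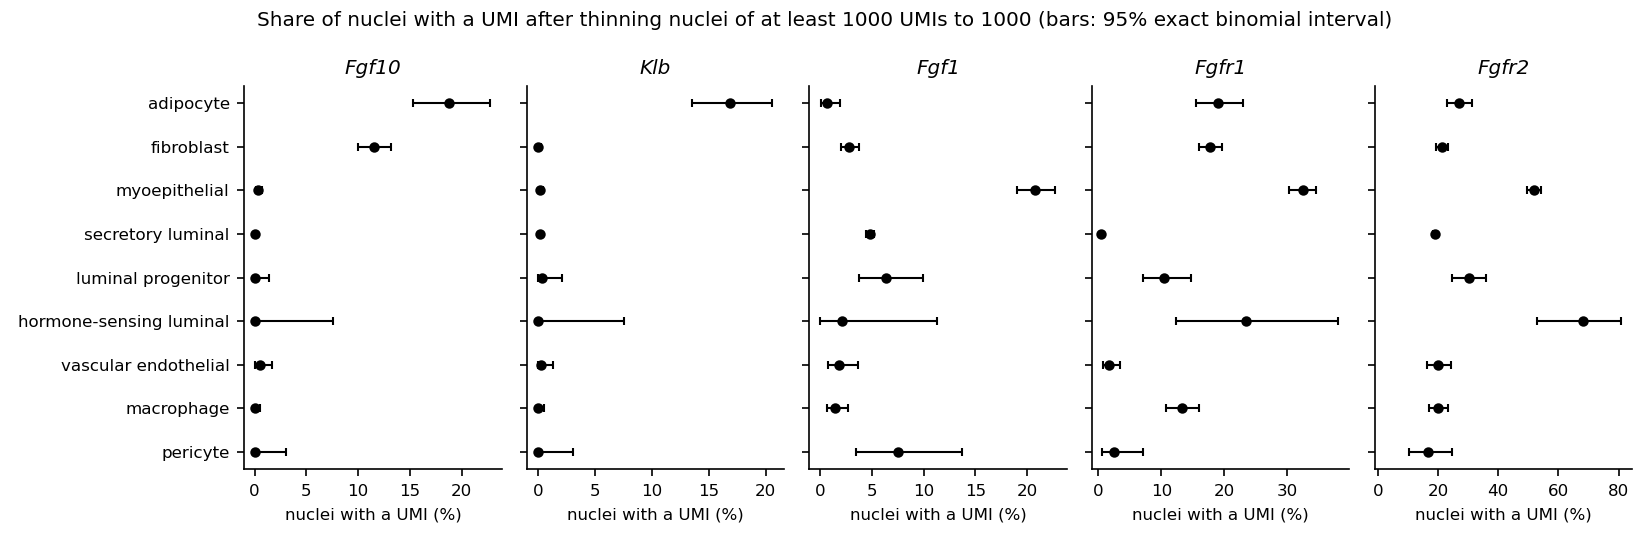
Share of nuclei with at least 1 UMI of a gene (x axis, percent) in 9 cell types (y axis) after thinning to 1000 UMIs, pooled over the nuclei of a type with at least that many UMIs, with 95% exact binomial intervals that cover counting error only. Fgf10 and Klb are at or near 0 outside the stroma, and Fgfr1 nearly misses secretory luminal nuclei at 0.377%. Fgfr2 is at 20.1% in macrophages, 51.9% in myoepithelial nuclei and 68.1% in hormone-sensing luminal nuclei.

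The type with the highest mean was the same for each of the 8 genes in 15 of 15 settings. Within types, clusters made without the FGF genes still differed in them. The smaller of the 2 fibroblast clusters (396 nuclei, with Pi16 and Gfpt2 among its 10 leading genes) held 481, 249, 304 and 360 CPM of Fgfr1 in KO1 to KO4, and 418, 361, 541 and 444 CPM in WT1 to WT4. The larger one (1324 nuclei, led by Lama2 and Pdgfra) ranged from 75.8 to 129 CPM. The smaller cluster was higher in 8 of 8 animals, and the ranges did not overlap. Over all its nuclei Fgf2 was at 29.5 CPM in the smaller and 3.26 CPM in the larger cluster, but per animal the smaller was higher in 4, lower in 2 and equal at 0 in the rest. Fgf10 in the smaller cluster had 3, 1, 2 and 1 UMIs in KO1 to KO4, 19.0 to 65.6 CPM, against 26, 8, 7 and 3 UMIs in WT1 to WT4, 78.3 to 541 CPM. The genotypes did not overlap there, but each value rests on 4 to 24 nuclei, and it was singled out after its values were seen and has no test. Of 3305 genes with at least 20 UMIs in that cluster, 1.15% were lower in every animal labelled knockout than in every WT animal and 1.48% were higher in all of them. Of the 3 FGF genes with that many UMIs, Fgf10 was separated and the other 2 were not, and in the whole fibroblast type the Fgf10 ranges overlapped.

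Of the 2 myoepithelial clusters, the larger (1550 nuclei) averaged 265 CPM of Fgf1, 438 CPM of Fgfr1 and 796 CPM of Fgfr2, against 119, 141 and 432 CPM in the smaller (393 nuclei). For all 3 genes the larger cluster was higher in 8 of 8 animals. The myoepithelial levels given earlier sum both clusters, so for these genes their means lie below those of the larger cluster. The smaller cluster had more UMIs per nucleus, a median of 5994 against 2390, and a median doublet score of 0.207 against 0.0139, so it may hold nuclei joined with those of other types, which was not tested. Its Fgf10 level averaged 11.9 CPM, against 0.481 CPM in the larger cluster. Hormone-sensing luminal nuclei were too few for values per dam, and over all 47 of them Fgfr2 was at 1104 CPM (95% Poisson interval 944 to 1284 CPM) and Fgfr1 at 229 CPM (159 to 318 CPM).

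**Figure D3:**
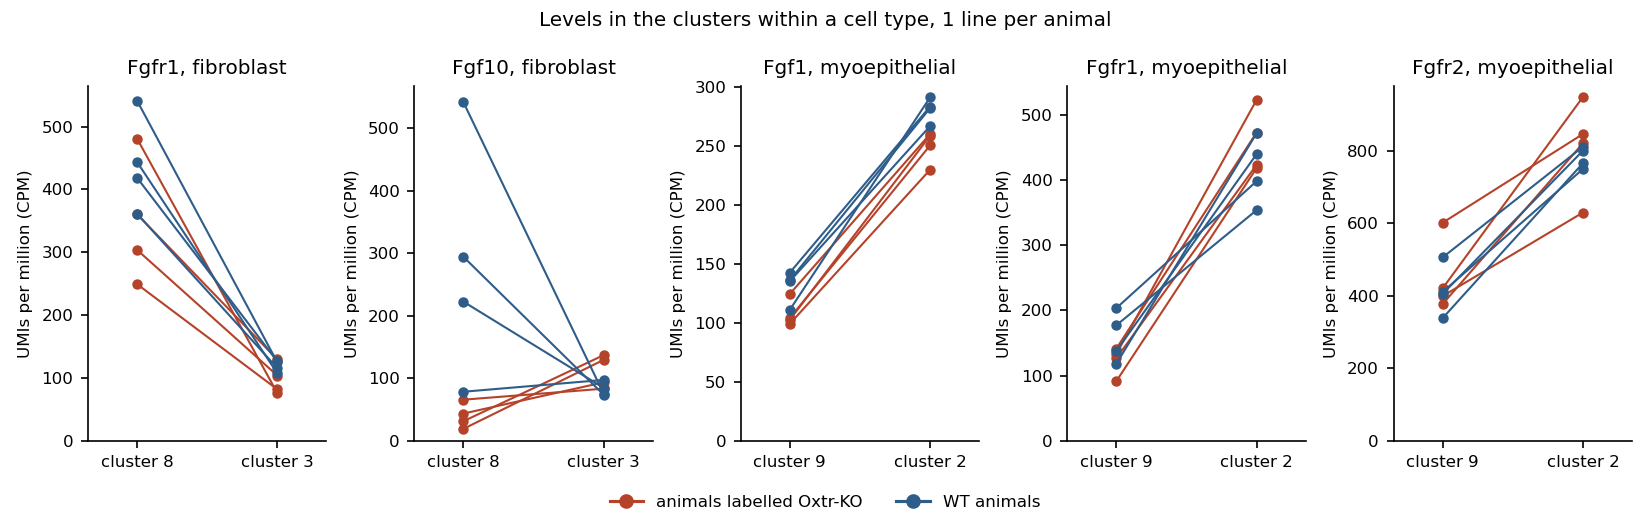
Levels (CPM, axis from 0) of Fgfr1 and Fgf10 in the 2 fibroblast clusters and of Fgf1, Fgfr1 and Fgfr2 in the 2 myoepithelial clusters, with 1 line per animal joining its 2 values. Fgfr1 falls on every line between fibroblast cluster 8 (396 nuclei) and cluster 3 (1324 nuclei), Fgf10 in cluster 8 lies between 19.0 and 65.6 CPM in the animals labelled knockout and between 78.3 and 541 CPM in WT animals, and the 3 myoepithelial genes are higher in cluster 2 (1550 nuclei) than in cluster 9 (393 nuclei) in all animals.

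Genes with the most similar pattern were listed for each member by Pearson correlation of log2(CPM + 1) over 57 sums from 8 cell types, as a description in which sums of 1 animal share their library. Klb was matched most closely by Acsm5 (r = 0.95), Gm35552 (r = 0.95) and A530016L24Rik (r = 0.95). Fgf10 was matched by Gm16263 (r = 0.94), an RNA annotated on the opposite strand of the Fgf10 gene itself, then by Sgcd (r = 0.93) and Enpp2 (r = 0.91). For Fgfr1 the closest were Prkca (r = 0.83), Micu3 (r = 0.83) and Ttc3 (r = 0.81), and for Fgf1 Ank3 (r = 0.80), Pkp3 (r = 0.78) and Npas3 (r = 0.77). The closest gene reached r = 0.76 for Fgf7 (Pla1a), 0.75 for Fgfr2 (Csrp1), 0.73 for Fgf2 (Maob) and 0.72 for Fgfr3 (Nebl).

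Several members overlap other genes, and no source used here says whether counting used the strand, so reads of such partners may be mixed. Gm16263 was at 37.6 CPM in adipocytes and 40.3 CPM in fibroblasts. Arhgap26, opposite Fgf1, was at 23.0 CPM in myoepithelial nuclei and at 4.78 to 20.3 CPM in the other 6 types. Fam227b, opposite Fgf7, was highest in fibroblasts too, at 6.58 CPM, and Nudt6, opposite Fgf2, lay between 6.83 and 14.1 CPM in every type. Klb overlaps no gene in that GRCm38 annotation.

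The animals labelled knockout were then compared with WT animals within each cell type, with edgeR's quasi-likelihood test over all genes and Benjamini-Hochberg adjustment at 0.05. No member passed in any type. In adipocytes 0 of 4 members tested passed, where 0.0247% of 4045 genes did (1 gene, Ofcc1). The other types gave 0 of 5 members in fibroblasts (0% of 6484 genes called), 0 of 3 in myoepithelial nuclei (0.0145% of 6915 genes, namely Got1), 0 of 4 in secretory luminal nuclei (0% of 12902), 0 of 1 in luminal progenitors (0% of 1972), 0 of 1 in vascular endothelium (0% of 1863) and 0 of 2 in macrophages (0% of 4719). Sums over all epithelial types gave 0 of 4 members (0% of 13883 genes) and sums over fibroblasts and adipocytes 0 of 5 (0.0123% of 8131 genes). At an unadjusted p under 0.05, 321 genes were counted in adipocytes, 279 in fibroblasts, 500 in myoepithelial nuclei, 1100 in secretory luminal nuclei, 94 in luminal progenitors, 63 in vascular endothelium, 311 in macrophages and 1098 in all epithelial types. DESeq2 called 32 genes in secretory luminal nuclei and 26 in all epithelial types, none of them a member.

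In adipocytes, the cells in which the receptor was to be deleted, Klb averaged 185 ± 30.4 CPM in the animals labelled knockout and 255.7 ± 57.0 CPM in WT animals (SD, n = 4 each). The log2 fold change was -0.46 (SE 0.21, unadjusted p = 0.0440, adjusted p = 0.609, edgeR), and the ranges overlapped between 207 and 211 CPM. Of 4045 genes tested in adipocytes, 321 had an unadjusted p under 0.05. Fgf10 averaged 208 ± 121 CPM in the animals labelled knockout and 330 ± 97.9 CPM in WT animals, a log2 fold change of -0.65 (SE 0.32, adjusted p = 0.634, edgeR). In each group 1 dam stood with the other group: KO2 at 389 CPM and WT4 at 186 CPM. Without KO2 the log2 fold change was -1.16 (adjusted p = 0.0932, edgeR). Over all alternatives it lay between -1.16 and -0.50, with adjusted p between 0.0932 and 0.942. The 2 receptors leaned upward instead. Fgfr1 stood at 175, 206, 225 and 149 CPM in KO1 to KO4, against 220, 122, 119 and 163 CPM in WT1 to WT4 (log2 fold change 0.26, SE 0.23, adjusted p = 0.835, edgeR). Fgfr2 stood at 365, 304, 488 and 556 CPM in KO1 to KO4, against 251, 360, 246 and 424 CPM in WT1 to WT4 (log2 fold change 0.42, SE 0.24, adjusted p = 0.688, edgeR). All 4 genes had overlapping ranges. The adipocyte nuclei also differed by label in their markers. The 10 listed adipocyte markers together were at 8760 to 10564 CPM in the animals labelled knockout and 11014 to 12268 CPM in WT animals. The listed myoepithelial markers in the same nuclei were at 71.5 to 372 and 55.2 to 158 CPM, with overlapping ranges. Whether these marker differences bear on the 4 genes was not tested.

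Outside adipocytes, fibroblast Fgfr1 stood at 107, 92.8, 125 and 161 CPM in KO1 to KO4, against 175, 149, 143 and 137 CPM in WT1 to WT4 (log2 fold change -0.37, SE 0.19, adjusted p = 0.999, edgeR). Myoepithelial Fgf1 averaged 166 ± 20.1 CPM in the animals labelled knockout and 204 ± 18.1 CPM in WT animals (SD, n = 4 each). It had a log2 fold change of -0.32 (SE 0.14, unadjusted p = 0.0352, adjusted p = 0.643, edgeR), where 500 of 6915 genes had an unadjusted p under 0.05. In the larger myoepithelial cluster alone that change was -0.20, without barcodes of high doublet score -0.18, and with all hashtags in the calling -0.08. Fibroblast Fgf10, at 103 ± 22.5 and 101 ± 7.27 CPM, and fibroblast Fgf7, at 27.3 ± 14.0 and 23.3 ± 10.6 CPM, gave log2 fold changes of -0.01 and 0.04. Secretory luminal Fgf1 averaged 44.7 ± 19.3 CPM in the animals labelled knockout and 53.8 ± 23.7 CPM in WT animals (log2 fold change -0.36, SE 0.34, adjusted p = 0.782, edgeR). Fgf2 and Fgfr3 did not pass the filter on low counts in any type.

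**Figure D4:**
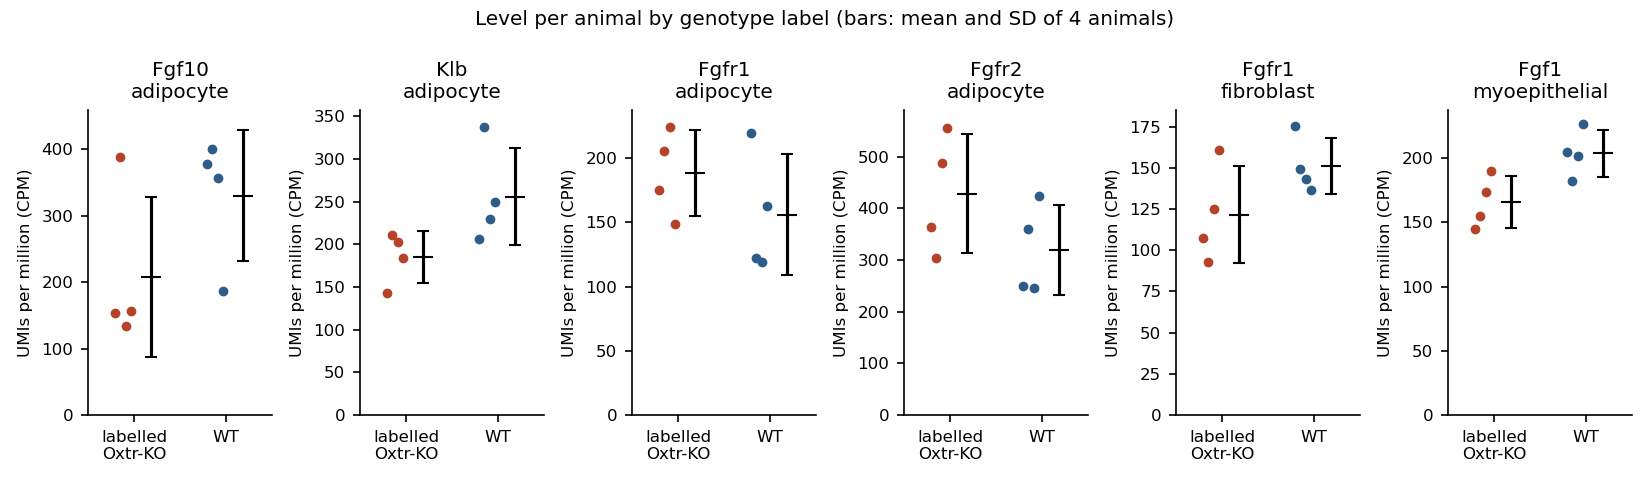
Level per animal (CPM, axis from 0) in animals labelled Oxtr-KO, left, and WT animals, right, for 6 combinations of gene and cell type, with the mean and SD of 4 animals beside the points. In adipocytes Fgf10 shows KO2 at 389 CPM among the WT values and WT4 at 186 CPM near the other labelled knockouts, and the ranges of the groups overlap in all 6 panels.

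The other secreted FGF ligands were nearly silent. Of 14 listed, Fgf3, Fgf4, Fgf6, Fgf15 and Fgf21 had no UMI in the 7 types, and only Fgf16, Fgf18, Fgf20 and Fgf22 reached 20 UMIs. Fgf16 and Fgf18 were highest in fibroblasts, at 9.18 and 5.05 CPM. Of the further receptors and co-receptors, Fgfrl1, which lacks the kinase domain, was at 27.4 CPM in myoepithelial nuclei and 22.3 CPM in adipocytes and at most 4.71 CPM elsewhere. Fgfr4 had 17 UMIs, at 3.72 CPM in myoepithelial nuclei, and Kl had 9. The intracellular FGF homologous factors are not secreted and act on ion channels, and among them Fgf14 was an adipocyte gene at 1202 CPM, against at most 6.68 CPM in the other 6 types.

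Of 13 feedback inhibitors and transcripts induced by ERK signalling in the deposited list, 7 had their highest mean in fibroblasts and 3 in macrophages. Adipocytes, myoepithelial and secretory luminal nuclei had 1 each. How many of all genes are highest in fibroblasts was not counted, so these counts are not read as a trait of the list. The fibroblast range of each of the 7 overlapped that of another type. Spred2, for example, averaged 109 CPM in fibroblasts (84.5 to 131 CPM) and 102 CPM in myoepithelial nuclei (62.1 to 143 CPM). Il17rd (Sef), an inhibitor at the receptor, stood at 48.2 CPM in fibroblasts, against 4.19 CPM in myoepithelial and 0.283 CPM in secretory luminal nuclei. Spry1 and Spry2, which dampen the relay, stood at 23.0 and 43.0 CPM in fibroblasts, 2.61 and 22.1 CPM in myoepithelial and 0.579 and 13.8 CPM in secretory luminal nuclei. The transcription factor Etv4 was highest in myoepithelial nuclei at 3.69 CPM, and the phosphatase gene Dusp5 in secretory luminal nuclei at 18.6 CPM. These genes answer many growth factors, so their levels are not a measure of FGF signalling alone. Among genes of heparan sulphate, the glypican Gpc6 was at 1035 CPM in fibroblasts and 900 CPM in myoepithelial nuclei, and the sulphatase gene Sulf1 at 221 CPM in fibroblasts and 239 CPM in vascular endothelium, against 8.51 CPM in secretory luminal nuclei.

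**Figure D5:**
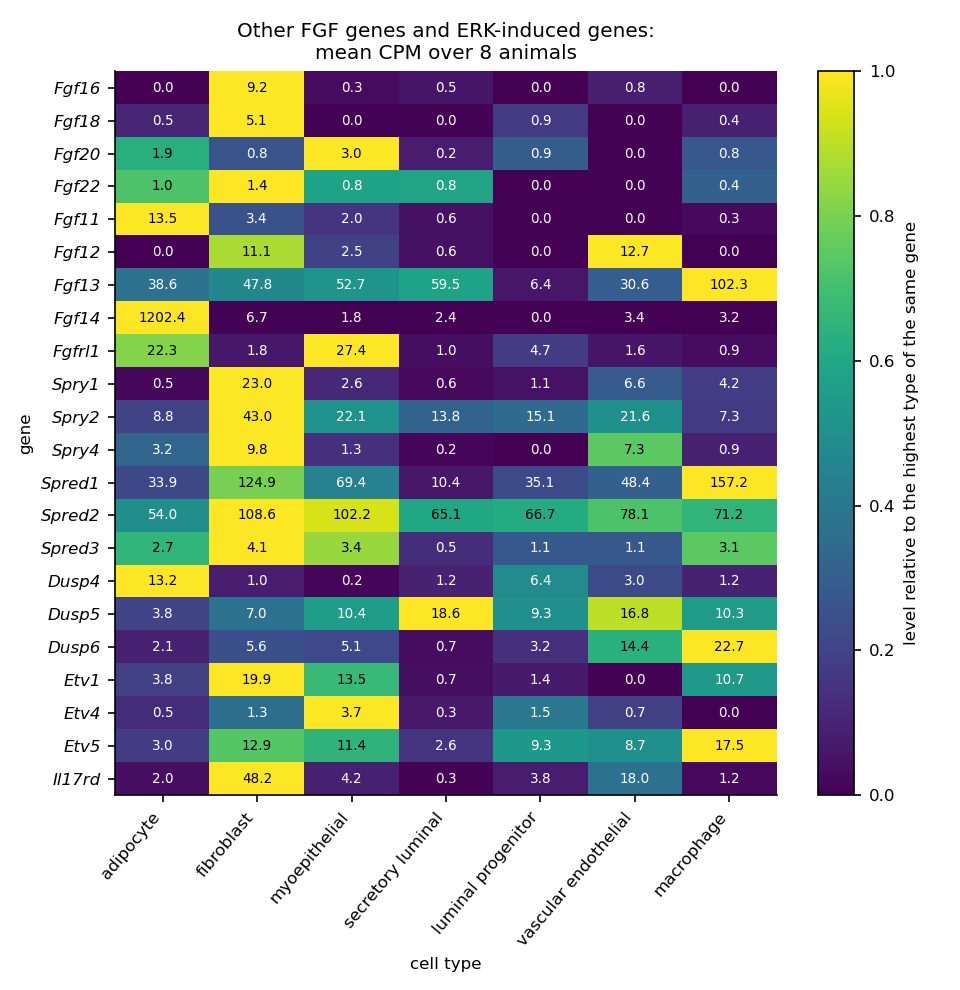
Mean CPM over 8 animals (numbers in the cells) of other FGF genes and ERK-induced genes with at least 20 UMIs, by cell type, coloured by the level relative to the highest type of the same gene. Fgf14 fills the adipocyte column at 1202 CPM, and 7 of the feedback and ERK-induced genes have their highest mean in fibroblasts, each with a range that overlaps another type.

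Between genotypes, none of these other FGF pathway genes passed in any type (edgeR, adjusted over all genes). In adipocytes 12 of 18 adaptor and relay genes could be tested, 4 with positive and 8 with negative changes and a median log2 fold change of -0.15, against 0.00 over all genes. Of 23 heparan sulphate genes 11 were tested there, 8 positive and 3 negative, with a median of 0.18. Gpc4, a glypican, had the smallest p among them, at 50.1 ± 25.2 CPM in the animals labelled knockout and 109.8 ± 33.4 CPM in WT animals (log2 fold change -1.09, adjusted p = 0.390, edgeR). Gpc6 in adipocytes averaged 95.8 ± 64.7 CPM in the animals labelled knockout and 29.1 ± 29.97 CPM in WT animals (1.57, adjusted p = 0.570, edgeR).

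In secretory luminal nuclei 18 of 18 adaptor and relay genes were tested (10 positive, 8 negative, median 0.01), as were 6 of the feedback genes (5 positive, 1 negative, median 0.36, against -0.01 over all genes). Spred1, an inhibitor of the ERK relay, averaged 13.3 ± 4.32 CPM in the animals labelled knockout and 7.49 ± 0.974 CPM in WT animals (log2 fold change 0.80, adjusted p = 0.556, edgeR). Spry2 pointed down there, at 12.4 ± 1.06 against 15.2 ± 1.27 CPM (-0.32, adjusted p = 0.576, edgeR). Map2k1, the kinase above ERK, averaged 122 ± 22.6 CPM in the animals labelled knockout and 91.3 ± 13.9 CPM in WT animals, and the heparan sulphatase gene Sulf2 39.9 ± 5.92 and 54.0 ± 7.76 CPM (adjusted p = 0.576 and 0.556, edgeR).

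In fibroblasts 15 adaptor and relay genes were tested (9 positive, 6 negative, median 0.06) and 15 heparan sulphate genes (6 positive, 9 negative, median -0.05). Fibroblast Spry2 averaged 35.2 ± 3.51 CPM in the animals labelled knockout and 50.8 ± 6.52 CPM in WT animals, and Gpc3 147 ± 36.2 and 209.5 ± 54.0 CPM, both with adjusted p = 0.999 (edgeR). In myoepithelial nuclei 16 adaptor and relay genes were tested (7 positive, 9 negative, median -0.03), and 15 heparan sulphate genes (9 positive, 6 negative, median 0.06). Plcg1, a phospholipase recruited by the receptors, averaged 21.5 ± 4.68 CPM in the animals labelled knockout and 36.5 ± 3.91 CPM in WT animals (log2 fold change -0.83, adjusted p = 0.401, edgeR). Spred2 averaged 119.5 ± 18.7 and 84.9 ± 18.2 CPM there (0.47, adjusted p = 0.515, edgeR).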

How the data were processed

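The authors deposited raw UMI counts per gene and nucleus and hashtag reads per UMI, counted here as UMIs per barcode. The build was GRCm39 and the tools included Cell Ranger 7.2.0 and fastp, per the submitters' processing notes. Of 10 deposited hashtags, 9 were called, since 1 of 2 unknown samples had 12088 UMIs. Barcodes with at least 500 UMIs, 300 genes and under 5% mitochondrial UMIs were kept. Dams were called with HTODemux (Seurat 5.3.0, quantile 0.99): 265 barcodes carried an unknown hashtag, 5647 none, and 1944 more than 1, which were removed as doublets. Scrublet's own threshold marked 1 barcode and so did not work. The 18910 barcodes left were clustered (scanpy 1.11.5, Leiden resolution 0.5, 2000 variable genes less 9 FGF genes) into 14 clusters, 12 of them named by at least 3 markers, each 2-fold above the median of the other clusters and in 5% of nuclei. Secretory luminal joined 2 clusters, of which 1 (2121 nuclei) had a median of 2386 UMIs. Counts were summed per dam and type, with at least 10 nuclei in 3 dams of each genotype, and tested with edgeR 4.0.16 (R 4.3.3, TMM, filterByExpr, genotype as the only term). The fit was checked on simulated sums, with changes planted only in well-counted genes at a fixed spread between animals. That check does not give the power for scarcer or more variable members. Alternatives were other hashtag rules, doublet scores, depth and resolution settings, no count filter, other scaling, a replicate block, DESeq2 1.42.0, leaving out each dam, and, added after seeing the data, dropping 2 doubtful clusters. Dams are taken as the replicates because each hashtag names one, and the spread between them includes that of hashtag calling. Members, lists and markers were chosen with earlier results of these data known. Named were all members and, per list and main cell type, genes that passed or else the 2 with the smallest p. Some genes that this rule names are not reported here. For likeness, the 3 highest correlations among genes with at least 100 UMIs were named.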

Additional observations from a re-analysis of the deposited data

Results flagged for a closer look

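In 4 of 60 groups of 4 animals, 1 animal stood apart from the other 3, and chance alone sets about 1 in 20 groups apart. Fgf10 in adipocytes was at 389 CPM in KO2 and between 134 and 157 CPM in the other animals labelled knockout. Fgfr1 in macrophages was at 197 CPM in KO4, against 78.0 to 97.5 CPM in the other animals labelled knockout. Fgf1 in luminal progenitors was at 192 CPM in WT2, from 12 UMIs, and at 62.9 to 83.0 CPM in the other WT animals. Fgfr2 in secretory luminal nuclei was at 320 CPM in WT4 and at 168 to 193 CPM in the other WT animals.

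The 265 nuclei with the hashtag of an unknown sample entered no comparison, and 235 of them lay in an unnamed cluster of 269 nuclei led by Nrg3. They held 581 Fgfr2 UMIs (363 CPM, 95% Poisson interval 334 to 394 CPM), 123 Fgf1 UMIs (76.9 CPM), 91 Fgfr1 UMIs (56.9 CPM), 24 Fgf10 UMIs, 9 Fgfr3 UMIs (5.63 CPM) and 5 Fgf7 UMIs (3.13 CPM). Klb had 3 UMIs and Fgf2 none.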

How the results depend on the processing

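The cause of each change below was not tested. The highest Fgf2 and Fgfr3 levels rest on 24 and 18 UMIs. Of the levels by type, 823 moved by less than the spread between animals under the alternatives and 17 by more, among them myoepithelial Fgf1, Fgfr1, Fgfr2 and Fgfr3 without the smaller myoepithelial cluster, at 265, 438, 796 and 8.91 CPM. Of the fixed pairs of types, Fgf1 fibroblast minus secretory luminal passed with high Scrublet scores removed (-18.2 CPM) and with milk protein genes left out of the totals (-17.4 CPM), and without 1 dam it ran from -16.5 to -6.94 CPM, passing without WT4. Fgf2 fibroblast minus secretory luminal failed with hashtags called within barcodes (4.85 CPM), and without 1 dam it ran from 4.14 to 6.08 CPM. Fgf7 adipocyte minus secretory luminal failed within barcodes (-0.723 CPM) and with all hashtags (-1.36 CPM), and without 1 dam it ran from -2.09 to -1.42 CPM. Fgfr3 secretory luminal minus fibroblast, not called, changed sign without high Scrublet scores (0.207 CPM) and ran from -0.138 to 0.151 CPM without 1 dam. All other pairs kept direction and call.

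No alternative called a member between genotypes. Counts of called genes moved. With no filter on low counts they were 77 in adipocytes, 21 in fibroblasts, 66 in myoepithelial nuclei, 5 in luminal progenitors, 7 in vascular endothelium, 57 in macrophages and 64 in the summed stroma. DESeq2 gave 6 in adipocytes, 7 in myoepithelial nuclei, 1 in vascular endothelium, 32 in secretory luminal nuclei and 26 in all epithelial types. With the replicate block they were 7 in adipocytes, 1 in fibroblasts, 22 in myoepithelial nuclei and 1 in vascular endothelium, but same-numbered dams correlated at -0.22 to 0.25 (over 0.1 in 12 of 36 pairs), so the numbers are not taken as pairs. With all hashtags and with high Scrublet scores removed, adipocytes and the summed stroma gave 0, and myoepithelial nuclei 2 and 0. Hashtags called within barcodes gave 0 in myoepithelial nuclei, dropping the doubtful clusters, chosen after seeing the data, gave 2, and a minimum of 1000 UMIs gave 1 in vascular endothelium. Without 1 dam the counts ran from 0 to 31 in adipocytes, 0 to 1 in fibroblasts, 1 to 11 in myoepithelial nuclei, 0 to 31 in secretory luminal nuclei, 0 to 2 in luminal progenitors, 0 to 1 in vascular endothelium, 0 to 1 in macrophages, 0 to 26 in all epithelial types and 0 to 2 in the summed stroma. The highest counts of adipocytes, myoepithelial, secretory luminal and all epithelial nuclei came without WT4.

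Log2 fold changes near 0 changed sign. With all hashtags, fibroblast Fgf1 was -0.50, fibroblast Fgf10 0.29, myoepithelial Fgfr2 -0.028, luminal progenitor Fgfr2 -0.052 and stromal Fgf1 -0.12. Fibroblast Fgf10 was 0.0027 at resolution 1.0, 0.020 with no filter and 0.00013 in DESeq2. Fibroblast Fgfr2 was 0.030 with no filter, 0.0019 with DESeq2 size factors and 0.0025 in DESeq2. Myoepithelial Fgfr1 was 0.12 with high Scrublet scores removed and 0.11 without the doubtful clusters. Vascular endothelial Fgfr2 was 0.028 at 1000 UMIs and 0.032 with the block. Stromal Fgfr1 was 0.066 within barcodes and 0.090 without high Scrublet scores. Without 1 dam, fibroblast values ran from -0.079 to 0.35 for Fgf1, -0.27 to 0.48 for Fgf7, -0.16 to 0.088 for Fgf10 and -0.13 to 0.079 for Fgfr2. Fgfr2 ran from -0.093 to 0.100 in myoepithelial nuclei, -0.025 to 0.34 in luminal progenitors and -0.19 to 0.16 in vascular endothelium. Secretory luminal Fgf7 ran from -0.042 to 0.51 and Fgfr1 from -0.014 to 0.47, macrophage Fgfr1 from -0.17 to 0.48, and all epithelial Fgf7 from -0.14 to 0.40. Stromal Fgf1 ran from -0.063 to 0.51 and Fgfr1 from -0.13 to 0.068. In all, 470 genotype values kept their sign and 47 changed it, and none was called.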

Other observations

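Fgf14, an intracellular relative of the secreted FGFs that binds sodium channels, had 1214 ± 213 CPM in adipocytes of the animals labelled knockout and 1191 ± 381 CPM in those of WT animals (SD, n = 4 each; log2 fold change 0.01, SE 0.23, adjusted p = 0.999, edgeR). Fgf13 of the same group was highest in macrophages at 102 CPM. In secretory luminal nuclei it averaged 72.9 ± 22.2 CPM in the animals labelled knockout and 46.1 ± 5.36 CPM in WT animals (log2 fold change 0.61, SE 0.18, adjusted p = 0.556, edgeR). In fibroblasts it averaged 69.4 ± 40.5 and 26.3 ± 19.4 CPM in the same order (log2 fold change 1.33, SE 0.47, adjusted p = 0.999, edgeR).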
